A study of Homo sapiens with 14 samples.

Results

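The change from 16 h to 19 h in cells given an ATR inhibitor (ATRi) was described gene by gene in chromatin immunoprecipitation and sequencing (ChIP-seq) of RNA polymerase II (RNAPII), once with an antibody against all RNAPII and once with an antibody against the form phosphorylated on the C-terminal repeats at serine 2 (Ser2). Genes entered when they lay on a nuclear chromosome and averaged at least 1 read per 1000000 library reads (RPM) over the 6 libraries of their antibody that had received DMSO or ATRi. Of 12411 nuclear genes among 12425 listed, 12031 passed in total RNAPII, 11989 in Ser2 and 11978 in both. MIR3138 (1.0005 RPM) was the named gene just inside this limit in total RNAPII and PCDHB12 (0.9992 RPM) the one just outside it. In Ser2 these were ATP5MGL (1.0019 RPM) and NFKBIL1 (0.9988 RPM).

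The cells were BJ hTERT, human foreskin fibroblasts made immortal with telomerase, an established line that all 14 libraries of the study share. The 4 libraries compared here are total RNAPII at 16 h and 19 h and Ser2 at 16 h and 19 h, all with ATRi, and the 4 libraries of the same hours with DMSO, the solvent control, are given beside them. The labels name an Rpb1 N-terminal antibody from Cell Signaling and a Ser2-RPB1 antibody from Abcam. What the hours count from, which inhibitor was used and whether the cells were synchronised are not stated, and the protocol text names other antibodies (γH2A.X and histone H3). Each group holds 1 library, so no difference below has a replicate check and none was tested.

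ATR is the kinase that answers stalled replication forks and single-stranded DNA. It acts largely through CHEK1, and with WEE1 it holds back the cyclin-dependent kinases during S phase. RNAPII is recruited to promoters and pauses shortly after the start. Phosphorylation at serine 2 accompanies its passage through the gene body. Read density over a whole gene therefore mixes paused and elongating polymerase for the total antibody and follows mainly the elongating form for the Ser2 antibody.

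Reads over genes took a larger share of the library at 19 h. In total RNAPII with ATRi the share in nuclear genes was 52.0% of 19273038 reads at 16 h and 70.8% of 46533646 reads at 19 h. In Ser2 it was 37.1% of 19539110 reads at 16 h and 65.6% of 36316086 reads at 19 h. The DMSO libraries moved alike, from 49.4% to 72.0% in total RNAPII and from 35.8% to 63.5% in Ser2. The median gene held 494 and 1623 reads in the total RNAPII libraries with ATRi and 325 and 1104 in those of Ser2.

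The deposited RPM of the median gene was 1.39-fold higher at 19 h than at 16 h in total RNAPII and 1.84-fold higher in Ser2. On the log2(RPM + 0.5) scale these shifts were 0.48 and 0.88, and 87.8% and 91.0% of genes lay above 0. With DMSO the shifts were 0.58 and 0.90. Gene values below are centred on the median gene, so that 0 means a change equal to that of the median gene. A gene is said to have risen or fallen where its centred log2 change was at least 0.5 in size (1.41-fold). A gene that fell by this measure can still have gained RPM. Where a pair of values is given for a gene, the first is total RNAPII and the second Ser2.

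By this measure 486 genes rose in total RNAPII, 4.04% of those measured, and 1369 fell, 11.4%. In Ser2, 1638 rose (13.7%) and 2375 fell (19.8%). Counts in the gene lists below are to be read beside these shares. In both antibodies together 367 genes rose, 3.06% of 11978, and 1179 fell, 9.84%. The 367 genes make up 76.0% of those that rose in total RNAPII and 22.4% of those that rose in Ser2. The 1179 genes make up 86.6% of those that fell in total RNAPII and 49.8% of those that fell in Ser2. 1 gene, which has no assigned symbol, rose in total RNAPII and fell in Ser2, and 0 did the reverse. Across genes the changes in both antibodies had Pearson r = 0.85, a description over genes that share libraries.

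**Figure D1:**
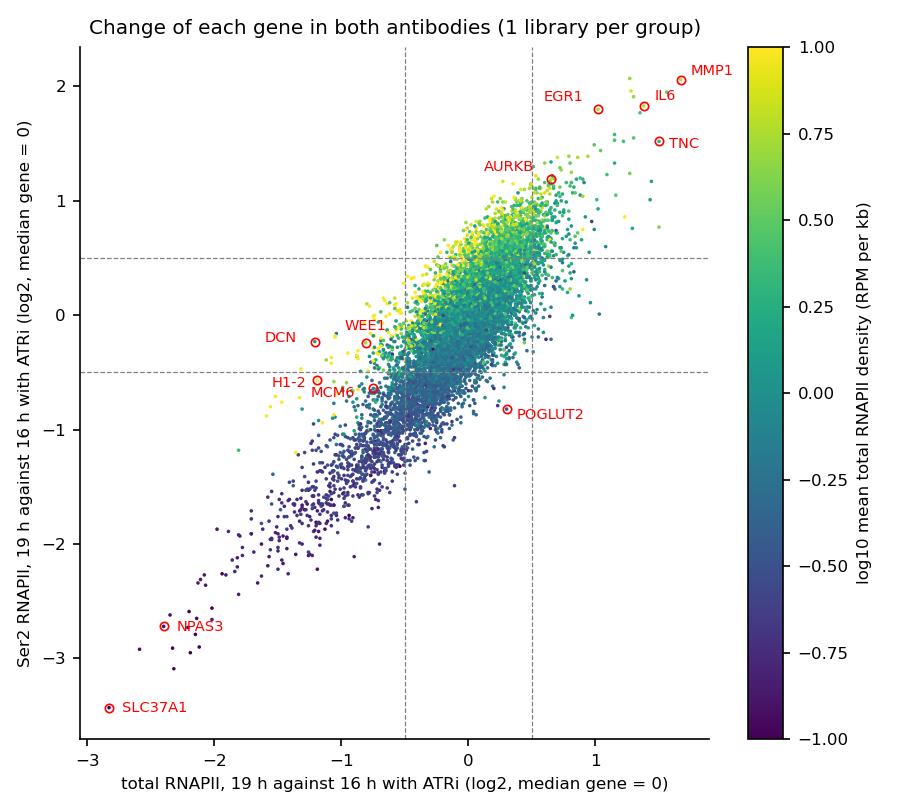
Each point is a gene, with its centred log2 change from 16 h to 19 h with ATRi in total RNAPII (x axis) and in Ser2 (y axis), coloured by its mean total RNAPII density in RPM per kb (log10). Dashed lines mark 0.5 in size. MMP1, IL6 and TNC lie at the upper right, and the sparsely covered genes SLC37A1 and NPAS3 at the lower left.

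The genes that rose were short to middle-sized and densely covered, and the genes that fell were long and sparsely covered. The 367 genes that rose had a median length of 18.2 kb, and their median density went from 1.29 to 2.91 RPM per kb in total RNAPII and from 0.731 to 2.55 in Ser2. Over all genes it went from 0.77 to 1.14 in total RNAPII and from 0.503 to 0.972 in Ser2. The 1179 genes that fell had a median length of 92.3 kb against 32.0 kb over all genes. Their median density went from 0.309 to 0.255 RPM per kb in total RNAPII and from 0.330 to 0.271 in Ser2. Of these, 85.3% lay in the lowest 2 deciles of total RNAPII density and 86.3% in the lowest 2 deciles of Ser2 density.

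The change varied with read density. For the deciles and the trend, density is the mean of 16 h and 19 h with ATRi. That mean holds the same values as the change, so genes that rose are drawn toward higher density and genes that fell toward lower. In the lowest decile, at a median of 0.256 RPM per kb, the median change was -0.65 in total RNAPII, and in the ninth decile, at 2.64 RPM per kb, it was 0.19. In the highest decile, at 5.74 RPM per kb, it was lower again, at 0.08. In Ser2 the medians went up from decile to decile, from -1.14 in the lowest to 0.48 in the highest. The same genes with DMSO gave -0.88, 0.25 and 0.22 in the lowest, ninth and highest deciles of total RNAPII. Values are therefore also given with this trend removed by a smooth curve of change against density. Then 396 genes lay 0.5 or more above 0 in total RNAPII (3.29%) and 578 lay that far below (4.8%). In Ser2 625 lay above (5.21%) and 566 below (4.72%).

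**Figure D2:**
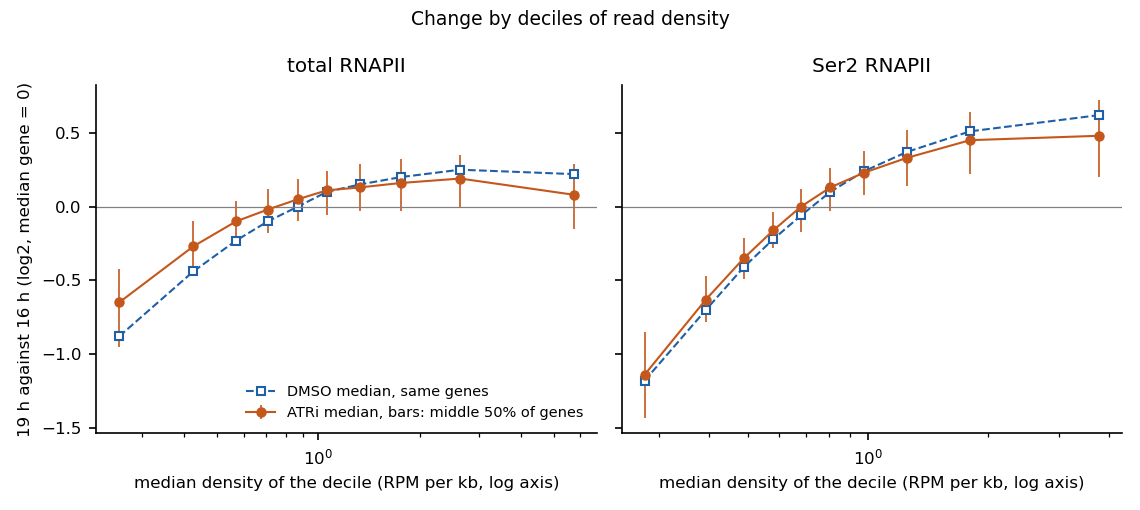
Median centred log2 change from 16 h to 19 h in each decile of genes, ordered by read density in RPM per kb (log axis), for total RNAPII (left) and Ser2 (right). Filled circles are ATRi with bars over the middle 50% of genes, open squares are DMSO for the same genes. Both treatments run from negative medians in sparse genes to positive medians in dense genes.

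The X chromosome stood apart once the trend was removed. The centred medians of its genes were 0.04 in total RNAPII (342 genes) and -0.01 in Ser2 (341 genes), close to those of the autosomes. With the trend removed they were 0.28 and 0.70, against -0.01 and -0.01 on the autosomes. The median X-linked gene had 0.545 RPM per kb in total RNAPII against 0.969 on the autosomes. Of the 625 genes above in Ser2 with the trend removed, 220 were X-linked. Trend-removed values of X-linked genes are thus not comparable with those of other genes.

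The 12 genes that rose most in both antibodies were chosen by the smaller of their changes. In order of the total RNAPII change they were MMP1, MIR31HG, TNC, RELB, IL6, ITGA2, RGS4, CD274, PTGS2, MOCS2, NFKB2 and HAS2. Their changes ran from 1.22 to 1.67 in total RNAPII and from 1.17 to 2.07 in Ser2. After removal of the density trend they ran from 1.04 to 1.56 and from 0.75 to 1.56. All 12 were also past 0.5 with DMSO, at 0.72 to 1.79 in total RNAPII and 1.03 to 2.02 in Ser2.

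MMP1, the interstitial collagenase (chr11:102789920-102798160), led the list. Total RNAPII over it went from 18.6 to 84.3 RPM, a change of 1.67 against the median gene. Ser2 went from 8.7 to 70.2 RPM, a change of 2.06. Counting error alone gave 95% intervals of 1.54 to 1.86 and 1.91 to 2.36, exact binomial intervals of the plain ratio that do not cover differences between cultures. With DMSO the values were 16.8 and 88.8 RPM in total RNAPII and 9.43 and 71.1 RPM in Ser2.

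IL6, the interleukin of the acute inflammatory response (chr7:22725884-22732002), went from 17.1 to 63.4 RPM in total RNAPII and from 8.09 to 55.6 RPM in Ser2. PTGS2, the inducible prostaglandin synthase, went from 30.7 to 105 RPM and from 13.3 to 98.6 RPM. CD274, the immune checkpoint ligand PD-L1, went from 40.7 to 141 RPM and from 18.9 to 134 RPM. The NF-kappaB subunit genes NFKB2 (1.27 in total RNAPII, 1.24 in Ser2) and RELB (1.44 and 1.17) rose with them. Of the 17 measured genes in the NF-kB and interferon list, 5 rose and 3 fell in total RNAPII, and 6 rose and 3 fell in Ser2. Among all genes 4.04% rose and 11.4% fell in total RNAPII, and 13.7% and 19.8% in Ser2. The list median was 0.34 in total RNAPII and 0.20 in Ser2, against 0.16 and 0.33 with DMSO. TNFAIP3, a brake on NF-kappaB signalling, rose in both (0.92 and 0.86), and NFKBIA, its inhibitor, in Ser2 (0.35 and 0.83). The members that fell were the interferon-induced genes IFIH1 (-0.79 and -1.14), MX1 (-1.07 and -1.37) and IFIT1 (-1.05 and -0.89), the last lying wholly within the span of another listed gene. These 5 genes and those named in the same way below, to show which list members a small count holds, were chosen after their values were seen.

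The kappaB site is the sequence that NF-kappaB dimers bind. In RefSeq promoters of GRCh38.p14, spanning 250 bases before to 50 after the start, a kappaB match on either strand was found in 9 of 15 genes of that list with a promoter (60.0%), against 10.8% of all 27305 promoters. Among the genes that rose in both antibodies 16.7% of 264 promoters held one, and among the genes that fell 11.6% of 803. Over all 8588 promoters of genes that passed the filter the share was 13.1%. The IL6 match is shown with its surrounding bases (chr7:22727117-22727146, plus strand, GRCh38.p14), the kappaB letters in capitals.
IL6: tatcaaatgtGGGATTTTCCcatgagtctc
No match lay in the windows of PTGS2, CD274, NFKB2 or TNC.

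TNC, tenascin C, a matrix glycoprotein of wound edges (chr9:115019578-115118257), differed most from DMSO among the 12. It went from 76.4 to 302 RPM in total RNAPII with ATRi and from 123 to 304 RPM with DMSO. The 2 treatments were apart at 16 h and close at 19 h. In Ser2 it went from 54.3 to 288 RPM with ATRi and from 70.7 to 271 RPM with DMSO. The centred changes were 1.50 and 1.52 with ATRi against 0.72 and 1.03 with DMSO.

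HAS2, a hyaluronan synthase, and RGS4, a regulator of G-protein signalling, showed the same order. HAS2 changed by 1.22 in total RNAPII and 1.52 in Ser2 with ATRi, against 0.80 and 1.24 with DMSO. RGS4 changed by 1.30 and 1.55, against 0.85 and 1.26. ITGA2, the alpha 2 integrin chain that binds collagen (chr5:52989326-53094779), changed by 1.35 and 1.77, against 1.53 and 1.82. MOCS2 (chr5:53095679-53110063, minus strand), an enzyme of molybdenum cofactor synthesis, converges with ITGA2 and ends 900 bp from it. Its change of 2.07 in Ser2 was the highest of the 12. ChIP reads carry no strand, so polymerase that runs past the end of ITGA2 cannot be told apart from polymerase on MOCS2.

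The 12 lowest genes were SLC37A1, LINC02882, NPAS3, KIAA1217, CXXC4, TMEM178B, RASGEF1C, CDH4, MGAM, SLIT3, ARHGAP28 and TMEM132B. They spanned 26.6 to 869 kb with a median of 338 kb. Their density was 0.118 to 0.215 RPM per kb at 16 h in total RNAPII and 0.0217 to 0.0667 at 19 h. At or under the 5th percentile of genes of at least 20 kb, 0.247 RPM per kb at 16 h and 0.201 at 19 h, lay 12 of 12 at both hours. The changes ran from -2.83 to -2.12 in total RNAPII and from -3.43 to -2.34 in Ser2, and with the density trend removed from -1.14 to -0.44 and from -1.03 to -0.44. With DMSO they ran from -3.44 to -2.41 and from -3.17 to -2.20.

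SLC37A1, a sugar phosphate transporter gene (chr21:42496008-42581440), was the lowest. It went from 11.5 to 1.85 RPM in total RNAPII (222 and 86 reads) and from 17.1 to 2.51 RPM in Ser2. NPAS3, a neuronal transcription factor gene of 869 kb, went from 157 to 41.1 RPM and from 250 to 69.6 RPM. CXXC4 went from 4.62 to 0.924 RPM and from 6.91 to 1.10 RPM. These genes lost RPM as well as standing below the median gene. From 19 h to 22 h with ATRi, where the same 19 h libraries serve as the lower hour, SLC37A1 changed by 2.03 in total RNAPII and 2.76 in Ser2.

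Very long genes showed the same picture. The 418 genes over 300 kb had median changes of -0.42 in total RNAPII and -0.72 in Ser2. Once the density trend was removed these medians were -0.02 and 0.01, and with DMSO, trend kept, -0.62 and -0.81. Of 21 measured genes in the list of fragile sites and very long genes, 11 fell in total RNAPII and 12 in Ser2, and 0 rose. Among all genes 11.4% fell in total RNAPII and 19.8% in Ser2, and 4.04% and 13.7% rose. WWOX, which spans the fragile site FRA16D, went from 221 to 87.3 RPM in total RNAPII and from 305 to 103 RPM in Ser2. PDE4D, a cyclic AMP phosphodiesterase gene of 1550 kb, went from 296 to 96.9 RPM and from 447 to 171 RPM. The list medians were -0.51 and -0.72, -0.06 and 0.01 with the trend removed, and -0.46 and -0.75 with DMSO.

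Some genes moved differently in the antibodies. DCN, decorin, a small matrix proteoglycan (chr12:91140484-91183123), went from 69.1 to 41.3 RPM in total RNAPII and from 33.0 to 51.9 RPM in Ser2. Its centred changes were -1.21 and -0.23. ANXA1, annexin A1, changed by -0.80 and 0.10, CCN5 by -1.04 and -0.16, and the U4 small nuclear RNA gene RNU4-1, one of several near-identical copies, by -1.05 and -0.18. With DMSO the same genes had -0.83 and -0.03 (DCN), -0.72 and 0.12 (ANXA1), -0.96 and -0.53 (CCN5), and -0.57 and 0.16 (RNU4-1). LOC124900665, also among the 5 genes with the largest excess of Ser2, changed by 0.27 and 1.17. With the density trend removed the values were -1.35 and -0.49 (DCN), -0.91 and -0.41 (ANXA1), -0.95 and 0.14 (CCN5), -0.52 and -0.33 (RNU4-1), and 0.20 and 0.68 (LOC124900665).

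In the other direction POGLUT2, an endoplasmic reticulum glucosyltransferase, changed by 0.30 in total RNAPII and -0.82 in Ser2. It had 82 reads at 16 h in total RNAPII, and its counting interval there ran from 0.01 to 0.73. DDN, dendrin, changed by 1.03 and 0.01 on 21 reads at 16 h, with an interval of 0.75 to 2.13 in total RNAPII. CNKSR1, FAM66B and EML4-AS1 completed the 5 genes with the largest excess of total RNAPII over Ser2. FAM66B went from -0.79 and -1.85 to -0.05 and -0.15 once the density trend was removed. EML4-AS1 likewise went from -0.50 and -1.52 to -0.18 and -0.48. The other trend-removed values were 0.60 and -0.07 for POGLUT2, 1.10 and -0.07 for DDN, and 1.19 and 0.69 for CNKSR1.

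Few G1/S genes were past the threshold, and most of the G2/M genes past it were so in Ser2. Of 48 measured G1/S and DNA replication genes, 0 rose and 4 fell in total RNAPII, and 5 rose and 3 fell in Ser2. Each of these shares lay below that of all genes in the same antibody and direction. The list medians were -0.07 and 0.09, or -0.16 and -0.09 with the density trend removed, so that the Ser2 direction turned with that scaling. With DMSO they were -0.16 and 0.05. Of 54 measured G2/M and mitotic genes, 3 rose and 0 fell in total RNAPII, and 21 rose and 1, NEK2, fell in Ser2. The 3 were AURKB, KIF2C and ESPL1, a share close to the 4.04% of all genes. The medians were 0.19 and 0.45, or 0.09 and 0.16 with the trend removed, and 0.29 and 0.41 with DMSO. Once the trend was removed, 1 G2/M gene in total RNAPII and 4 in Ser2 lay 0.5 or more above 0.

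The G1/S genes that fell were led by UNG, E2F1 and MCM6. E2F1, the transcription factor that drives S-phase genes (chr20:33675683-33686404), went from 22.8 to 19.0 RPM in total RNAPII and from 12.8 to 13.9 RPM in Ser2. Its changes of -0.73 and -0.76 against the median gene had counting intervals of -0.90 to -0.57 and -0.98 to -0.53. MCM6, a subunit of the replicative helicase (chr2:135839626-135876426), went from 33.6 to 27.6 RPM and from 21 to 25 RPM. UNG, which removes uracil from DNA, changed by -0.84 and -0.90. TK1, thymidine kinase, fell in total RNAPII only (-0.51 and -0.07). With the trend removed the values were -0.91 and -1.11 for E2F1, -0.79 and -0.56 for MCM6, and -0.88 and -0.85 for UNG.

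Of the other helicase genes MCM2 changed by -0.24 and -0.28, MCM3 by -0.41 and -0.07, MCM4 by -0.15 and -0.07, and MCM7 by -0.02 and 0.48. The polymerase clamp PCNA changed by -0.14 and 0.08, and thymidylate synthase, TYMS, by -0.10 and 0.24. FEN1, the flap endonuclease of Okazaki fragments, changed by 0.48 and 0.86, but 96.2% of its span is shared with another listed gene. With DMSO MCM6 changed by -1.03 and -0.71 and E2F1 by -0.73 and -0.66.

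E2F factors bind a short GC-rich site, and NF-Y binds CCAAT. The E2F letters searched were TTTGGCGC, TTTCCCGC, TTTCGCGC and TTTGCCGC on both strands, which can overlap each other and the GC-rich SP1 site GGGCGG. They were found in 22 of 42 G1/S promoters (52.4%) and in 3.3% of all 27305 promoters. The 200 bases before the start are shown for the MCM6 gene (chr2:135876444-135876643, minus strand) and for E2F1 (chr20:33686386-33686585, minus strand), both lower in both antibodies, with E2F and CCAAT letters of either strand in capitals.
MCM6: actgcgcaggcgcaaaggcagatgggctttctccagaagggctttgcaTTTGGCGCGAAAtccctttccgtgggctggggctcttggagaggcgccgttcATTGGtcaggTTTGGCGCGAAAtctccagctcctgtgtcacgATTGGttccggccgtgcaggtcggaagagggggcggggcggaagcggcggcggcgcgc
E2F1: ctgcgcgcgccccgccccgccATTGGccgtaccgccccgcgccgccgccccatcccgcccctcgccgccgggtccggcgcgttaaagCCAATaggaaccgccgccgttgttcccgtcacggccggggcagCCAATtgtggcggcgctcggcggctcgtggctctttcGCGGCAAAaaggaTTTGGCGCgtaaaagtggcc
No E2F match lay in the promoter window of UNG. Among the genes that rose in both antibodies 2.7% of promoters held an E2F match and among those that fell 5.1%, against 5.6% over the genes that passed the filter.

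The mitotic genes with the largest mean change over both antibodies were AURKB, KIF23, CKAP2L and CDCA3. AURKB, the Aurora B kinase of the chromosomal passenger complex (chr17:8204733-8210600), went from 24.6 to 54.3 RPM in total RNAPII and from 9.98 to 43.7 RPM in Ser2. Its changes were 0.65 and 1.19, with counting intervals of 0.52 to 0.81 and 1.03 to 1.47. KIF23, a kinesin of the central spindle, changed by 0.48 and 0.98, and CKAP2L, a spindle protein gene, by 0.49 and 0.93. CCNA2, cyclin A2, went from 22.2 to 40.0 RPM and from 9.72 to 34.6 RPM, changes of 0.36 and 0.90.

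CCNB1, CCNB2, PLK1 and AURKA, genes of mitotic entry, lay closer to the median gene than those above. CCNB1, cyclin B1, went from 13.2 to 17 RPM in total RNAPII and from 6.09 to 12.1 RPM in Ser2, changes of -0.13 and 0.05. CCNB2 had -0.05 and 0.05, PLK1 -0.32 and -0.20, and AURKA -0.05 and -0.17. CDC20, which activates the anaphase-promoting complex, had 0.19 and 0.50. With DMSO these were 0.25 and 0.18 for CCNB1, 0.45 and 0.59 for CCNB2, and 0.04 and -0.03 for PLK1. From 19 h to 22 h with ATRi, CCNB1 changed by 0.76 and 0.82, and PLK1 by 0.85 and 0.74.

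Many G2/M promoters hold the CHR element, searched as TTTGAA on both strands, beside CCAAT. It was found in 32 of 46 G2/M promoters (69.6%) against 15.4% of all promoters, and CCAAT in 37 of 46 (80.4%) against 35.7%. KIF23 and CKAP2L, which rose in Ser2, and PLK1, which did not, are shown with these letters in capitals (chr15:69414282-69414311, plus strand; chr2:112764610-112764639, minus strand; chr16:23678848-23678877, plus strand).
KIF23: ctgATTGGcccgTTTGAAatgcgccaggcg
CKAP2L: tacaggcgcggcgTTTGAAgaaaaactgtc
PLK1: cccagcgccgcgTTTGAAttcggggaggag
No CHR match lay in the promoter windows of AURKB or CCNB1. CHR matches stood in 9.5% of promoters of the genes that rose in both antibodies, 9.7% of those that fell and 9.6% of those that passed the filter.

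Among the checkpoint and repair genes WEE1 stood lowest in total RNAPII, while in Ser2 the Fanconi anaemia genes FANCM (-0.64) and FANCC (-0.54) lay below it. WEE1, the kinase that inhibits CDK1 (chr11:9573681-9593457), went from 111 to 88.1 RPM in total RNAPII with ATRi and from 80.3 to 97.2 RPM with DMSO. In Ser2 it went from 49.4 to 77.5 RPM with ATRi and from 36.8 to 83.1 RPM with DMSO. The ATRi library was the higher one at 16 h and the lower one at 19 h for both antibodies. The centred changes were -0.81 and -0.24 with ATRi against -0.31 and 0.26 with DMSO.

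ATR itself (chr3:142449235-142578826) went from 54.7 to 82.2 RPM in total RNAPII and from 50.8 to 84.3 RPM in Ser2. Its changes of 0.10 and -0.16 stood against -0.41 and -0.43 with DMSO. CHEK1, the main kinase downstream of ATR, changed by -0.08 and 0.31, against 0.00 and 0.23. Of 36 measured genes of DNA damage checkpoint and repair, 1 rose and 1 fell in total RNAPII, and 2 rose and 2 fell in Ser2. These shares lay under the 4.04% and 11.4% of all genes in total RNAPII and the 13.7% and 19.8% in Ser2. The list medians were 0.06 and 0.06, against -0.02 and 0.09 with DMSO.

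The median p53 target lay under the median gene with ATRi and above it with DMSO. CDKN1A, the p21 inhibitor of cyclin-dependent kinases (chr6:36676460-36687339), went from 49.1 to 65.7 RPM in total RNAPII and from 24.5 to 52.3 RPM in Ser2, changes of -0.06 and 0.20. With DMSO it went from 32.6 to 75.9 RPM and from 14.1 to 54.7 RPM, changes of 0.62 and 1.01. The ATRi library was above the DMSO library at 16 h and below it at 19 h in both antibodies. BTG2, an antiproliferative gene, changed by -0.52 and -0.65 with ATRi and by -0.02 and -0.16 with DMSO.

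SPATA18, a mitochondrial quality gene, changed by -1.06 and -1.73, close to its -1.25 and -1.65 with DMSO. Of 22 measured p53 targets, 0 rose and 3 fell in total RNAPII, and 3 rose and 5 fell in Ser2. Over all genes 4.04% rose and 11.4% fell in total RNAPII, and 13.7% and 19.8% in Ser2. The list medians were -0.06 and -0.13 with ATRi and 0.11 and 0.15 with DMSO. The ATRi change was above the DMSO change in 4 of 22 genes for each antibody, against 55.5% of all genes in total RNAPII and 52.8% in Ser2.

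Immediate early genes, which respond to growth factors within minutes, went both ways. EGR1, a zinc finger factor (chr5:138465490-138469315), went from 11.8 to 34.1 RPM in total RNAPII and from 4.15 to 29.4 RPM in Ser2, changes of 1.02 and 1.80. With DMSO it went from 11 to 60.0 RPM and from 4.10 to 42.3 RPM, changes of 1.82 and 2.32. The treatments were close at 16 h and apart at 19 h. SPRY4, a feedback inhibitor of ERK signalling, changed by 0.94 and 1.39 against 1.32 and 1.86.

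The matrix and signalling genes CCN1 (-0.95 and -0.33) and CCN2 (-0.69 and -0.20) and the phosphatase gene DUSP1 (-0.68 and -0.07) fell in total RNAPII. KLF4 changed by -0.79 and -0.49, JUN by -0.23 and 0.35, and MYC by -0.26 and 0.10. With DMSO JUN had 0.24 and 0.94 and MYC 0.10 and 0.59. Of 29 measured immediate early genes, 3 rose and 8 fell in total RNAPII, and 9 rose and 1 fell in Ser2. The shares of all genes were 4.04% and 11.4% in total RNAPII and 13.7% and 19.8% in Ser2. The list medians were -0.23 and 0.28, against 0.11 and 0.59 with DMSO. The Ser2 median was -0.16 with the density trend removed and -0.31 with background density subtracted, so its direction turned with the scaling.

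Serum response factor binds the CArG box, which 2 stretches in the 200 bases before the EGR1 start match (chr5:138465279-138465478, plus strand, GRCh38.p14), shown in capitals. The box was found in 1.3% of all promoters and in 2 of 21 immediate early promoters (9.5%).
EGR1: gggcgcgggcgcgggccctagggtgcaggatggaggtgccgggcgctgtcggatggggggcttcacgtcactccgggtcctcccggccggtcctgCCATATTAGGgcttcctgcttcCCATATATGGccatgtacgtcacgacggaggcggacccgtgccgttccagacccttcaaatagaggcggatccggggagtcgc

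**Figure D3:**
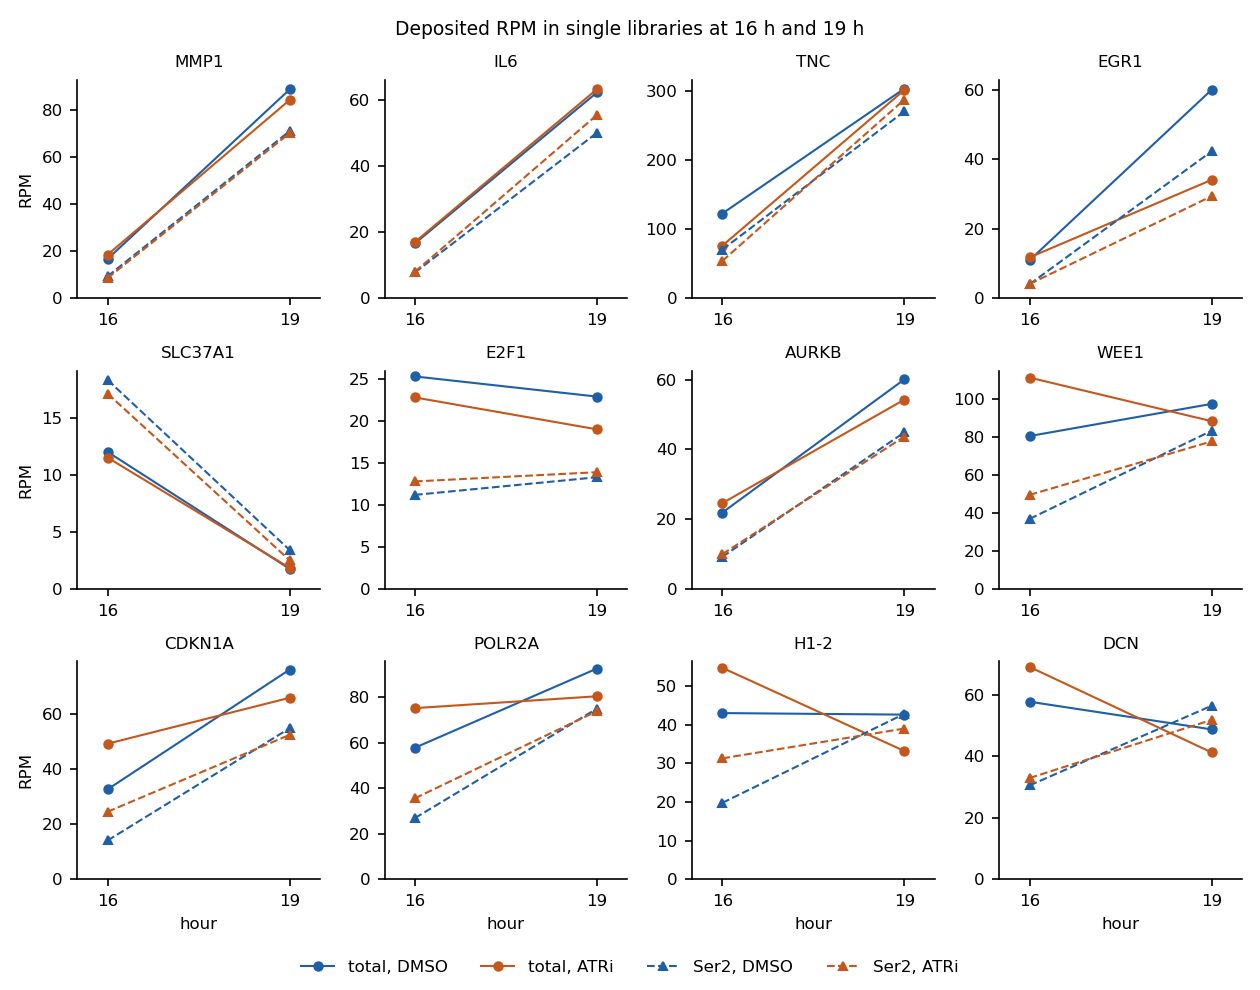
Deposited RPM (y axis, from 0) at 16 h and 19 h (x axis) for 12 genes, 1 library per point, circles with solid lines for total RNAPII and triangles with dashed lines for Ser2, orange for ATRi and blue for DMSO. MMP1 and IL6 overlie between treatments, WEE1 and H1-2 cross, and SLC37A1 falls in all 4 pairs.

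The median histone gene lay under the median gene in total RNAPII and above it in Ser2. Replication-dependent histone genes are short, intronless and transcribed in S phase. Of 23 measured, 0 rose and 8 fell in total RNAPII, and 8 rose and 1 fell in Ser2. For all genes the shares were 4.04% and 11.4% in total RNAPII and 13.7% and 19.8% in Ser2. The list medians were -0.35 and 0.34 with ATRi and 0.11 and 0.72 with DMSO. The ATRi change lay below the DMSO change in all 23 in total RNAPII and in all but 1 in Ser2, while over all genes it lay above in 55.5% and 52.8%. With the density trend removed the ATRi medians were -0.06 and 0.06, and with background density subtracted -0.63 and -0.33, so the Ser2 direction turned with the latter. Genes of this family are near-identical copies, and how reads between copies were counted is not given in the sources used here.

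The linker histone gene H1-2 had the lowest values of the list in both antibodies. H1-2 (chr6:26055787-26056428) went from 54.7 to 33.2 RPM in total RNAPII and from 31.3 to 39.0 RPM in Ser2 with ATRi. With DMSO it went from 43.0 to 42.6 RPM and from 19.8 to 42.8 RPM. The centred changes were -1.19 and -0.57 with ATRi against -0.60 and 0.19 with DMSO. H1-4 changed by -0.87 and -0.31, against -0.37 and 0.32. H4C1, a core histone gene, had the highest values of the list, 0.26 and 0.94.

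Ribosomal protein genes had the highest centred medians of the 23 lists in both antibodies. That rank was not kept with the density trend removed or with background density subtracted. Of 65 measured, 15 rose and 0 fell in total RNAPII, and 61 rose and 0 fell in Ser2. All genes had shares of 4.04% and 11.4% in total RNAPII and 13.7% and 19.8% in Ser2. Ribosomal protein genes 0.5 or more above 0 numbered 3 and 10 once the density trend was removed. The medians were 0.37 and 0.81, against 0.03 and 0.46 with DMSO, and the ATRi change exceeded the DMSO change in 60 and 59 of 65 genes, against 55.5% and 52.8% of all genes. With the density trend removed the ATRi medians were 0.26 and 0.32, under the 0.31 and 0.35 of the NF-kB and interferon list, and those of DMSO -0.19 and -0.17. With background density subtracted the ATRi medians were 0.13 and 0.37. In total RNAPII that was under the 0.26 of the unfolded protein response list and the 0.15 of the NF-kB and interferon list. It was also just under the 0.14 of the proteasome and the splicing factor lists. The NF-kB and interferon list likewise had 0.37 in Ser2. RPS10, a protein of the small subunit (chr6:34417454-34426125), went from 12.8 to 29.5 RPM in total RNAPII with ATRi and from 16.2 to 28.1 RPM with DMSO. RPLP2, of the ribosomal stalk, went from 5.43 to 22.3 RPM in Ser2 with ATRi and from 6.79 to 16.9 RPM with DMSO. RPS27A changed by 0.64 and 1.06 and RPL27 by 0.49 and 1.15.

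The gap between treatments in this list can be read by hour. At 16 h the median ribosomal protein gene stood at -0.27 with ATRi against DMSO in total RNAPII and at -0.18 in Ser2, relative to the median gene. At 19 h these were 0.01 and 0.12. For the histone list the same medians were 0.19 and 0.31 at 16 h and -0.25 and -0.11 at 19 h. For the immediate early list they were 0.25 and 0.34 at 16 h and -0.13 and -0.04 at 19 h, and for the actin list 0.30 and 0.41 at 16 h and -0.08 and -0.02 at 19 h. In ATRi cells these lists stood away from DMSO cells at 16 h, and by 19 h the actin medians lay within 0.1 of them.

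Splicing factor genes rose mainly in Ser2. Of 40 measured splicing factor genes, 5 rose in total RNAPII and 25 in Ser2, and 0 fell in either. Among all genes 4.04% rose in total RNAPII and 13.7% in Ser2, and 11.4% and 19.8% fell. The list medians were 0.25 and 0.59, 0.12 and 0.17 with the density trend removed, and 0.15 and 0.53 with DMSO. Only 1 splicing factor gene in total RNAPII and 2 in Ser2 lay 0.5 or more above 0 once that trend was removed. SRSF10, an SR-like splicing regulator, changed by 0.27 and 0.99, U2AF1, of the 3′ splice site factor, by 0.62 and 0.88, and SF3B3, of the U2 particle, by 0.54 and 0.91. Of 30 elongation genes 1 rose in total RNAPII and 4 in Ser2, and 0 fell, shares near or under those of all genes. ELL2, of the super elongation complex, went from 124 to 267 RPM and from 63.0 to 256 RPM.

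POLR2A, the largest RNAPII subunit (chr17:7484366-7514618), went from 75.3 to 80.5 RPM in total RNAPII and from 35.7 to 74.0 RPM in Ser2 with ATRi. With DMSO it went from 57.9 to 92.7 RPM and from 27 to 75.1 RPM. The changes were -0.38 and 0.16 against 0.09 and 0.56. Of 10 measured subunit genes 0 rose or fell in total RNAPII, and 1 rose and 0 fell in Ser2, shares under those of all genes. Their medians were 0.14 and 0.15, but -0.02 and -0.25 with the density trend removed, so that the direction turned.

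Matrix genes of the fibroblast went both ways in total RNAPII, and of those past the threshold in Ser2 most were higher. Of 26 measured matrix genes 3 rose and 7 fell in total RNAPII, and 9 rose and 1 fell in Ser2. The shares of all genes were 4.04% and 11.4% in total RNAPII and 13.7% and 19.8% in Ser2. COL12A1, a fibril-associated collagen, went from 95.8 to 228 RPM in total RNAPII and from 62.0 to 229 RPM in Ser2. The chains of type I collagen were among the genes that fell in total RNAPII, COL1A1 (from 301 to 249 RPM, -0.75) and COL1A2 (from 525 to 463 RPM, -0.66), with Ser2 changes of -0.29 and 0.13. LUM, lumican, a small proteoglycan near DCN on chromosome 12, went from 55.7 to 35.5 RPM and from 23.3 to 32.9 RPM, changes of -1.12 and -0.39. The list medians were -0.02 and 0.42, with DMSO 0.14 and 0.57, and the Ser2 median was -0.03 with the density trend removed. In Ser2 5 matrix genes then lay 0.5 or more above 0 and 4 that far below.

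Over all genes 4.04% rose and 11.4% fell in total RNAPII, and 13.7% and 19.8% in Ser2. Of 18 measured actin and contractile genes 0 rose and 1 fell in total RNAPII, and 9 rose and 0 fell in Ser2. The medians were 0.07 and 0.42, against 0.46 and 0.83 with DMSO, and the ATRi change was above the DMSO change in 2 of 18 and 1 of 18 genes, against 55.5% and 52.8% of all genes. With the density trend removed the medians were -0.05 and 0.06. Then 1 gene lay 0.5 or more above 0 and 2 that far below in total RNAPII, and 0 either way in Ser2. MYH9, the non-muscle myosin heavy chain, went from 566 to 991 RPM in total RNAPII and from 289 to 917 RPM in Ser2, changes of 0.33 and 0.78 against 0.67 and 1.15. TPM4, a tropomyosin, changed by 0.31 and 0.85, against 0.78 and 1.31.

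The median YAP or TGF-beta target lay under the median gene, with 5 of 20 targets above 0 in total RNAPII and 8 of 20 in Ser2. By the threshold 2 rose and 8 fell in total RNAPII, and 4 rose and 3 fell in Ser2. Over all genes these shares were 4.04% and 11.4% in total RNAPII and 13.7% and 19.8% in Ser2. F3, tissue factor, changed by 0.57 and 1.11, and SMAD6, an inhibitor of BMP signalling, by -1.06 and -1.07. The medians were -0.18 and -0.17 with ATRi and -0.05 and 0.17 with DMSO.

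**Figure D4:**
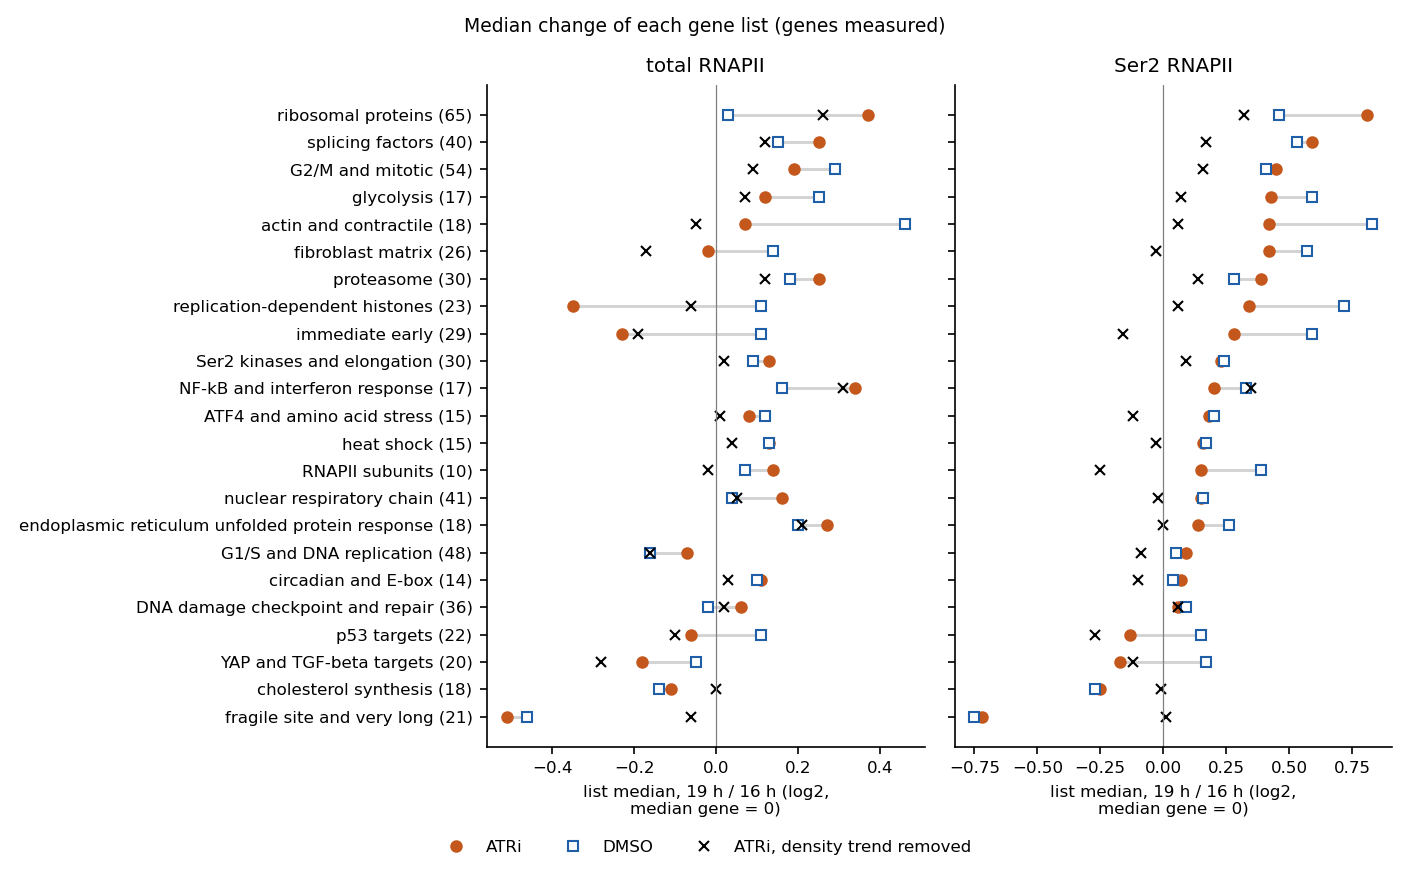
Median centred log2 change from 16 h to 19 h (x axis) of each gene list (y axis, number of genes measured in Ser2 in parentheses) for total RNAPII (left) and Ser2 (right), with filled circles for ATRi, open squares for DMSO and crosses for ATRi with the density trend removed. Ribosomal protein genes lie to the right of their DMSO squares, and actin, histone and immediate early genes to the left.

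Without centring, the median of each of the 23 lists lay above 0 in both antibodies, except that of the fragile site list in total RNAPII (-0.03).

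Cholesterol synthesis genes had medians of -0.11 and -0.25, against -0.14 and -0.27 with DMSO. Of 18 measured, 0 rose and 3 fell in total RNAPII, and 1 rose and 6 fell in Ser2. SREBF2, their master regulator, went from 48.0 to 38.1 RPM in total RNAPII and from 31.2 to 34.3 RPM in Ser2, changes of -0.81 and -0.75. The ATRi medians of the list were 0.00 and -0.01 with the density trend removed. Of 17 glycolysis genes 3 rose in total RNAPII and 6 in Ser2, with list medians of 0.12 and 0.43, against 0.25 and 0.59 with DMSO. Among them HK2, hexokinase 2, changed by 0.77 and 0.69, against 0.70 and 0.64 with DMSO. Of 30 proteasome genes 3 rose and 1 fell in total RNAPII, and 8 rose and 1 fell in Ser2. Proteasome medians were 0.25 and 0.39, against 0.18 and 0.28 with DMSO. With the density trend removed 2 glycolysis genes and 1 proteasome gene lay 0.5 or more above 0 in Ser2. Among all genes 4.04% rose and 11.4% fell in total RNAPII, and 13.7% and 19.8% in Ser2, by the centred values.

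Of 18 genes of the endoplasmic reticulum unfolded protein response 3 rose and 0 fell in total RNAPII, and 4 rose and 1 fell in Ser2, among them HSPA5, its main chaperone (0.45 and 0.93), and ERN1, its sensor (0.67 and 0.52). The medians of that list were 0.27 and 0.14, against 0.20 and 0.26 with DMSO. Of 15 ATF4 targets 2 rose and 2 fell in total RNAPII, and 3 rose and 3 fell in Ser2. SLC7A11, the cystine transporter, rose (0.66 and 0.56) and PSAT1, of serine synthesis, fell (-0.73 and -1.20). With DMSO SLC7A11 had 0.47 and 0.43 and PSAT1 -0.67 and -1.15. The ATF4 medians were 0.08 and 0.18, against 0.12 and 0.20 with DMSO. Of 15 heat shock genes 1 rose in total RNAPII and 3 in Ser2, and 0 fell. Of 41 respiratory chain genes 1 rose and 0 fell in total RNAPII, and 7 rose and 1 fell in Ser2. Among 14 circadian genes 0 rose or fell in total RNAPII, and 1 rose and 1 fell in Ser2. Heat shock medians were 0.13 and 0.16, against 0.13 and 0.17 with DMSO. Respiratory chain medians were 0.16 and 0.15, against 0.04 and 0.16, and circadian medians 0.11 and 0.07, against 0.10 and 0.04. For all genes the shares were 4.04% risen and 11.4% fallen in total RNAPII, and 13.7% and 19.8% in Ser2.

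**Figure D5:**
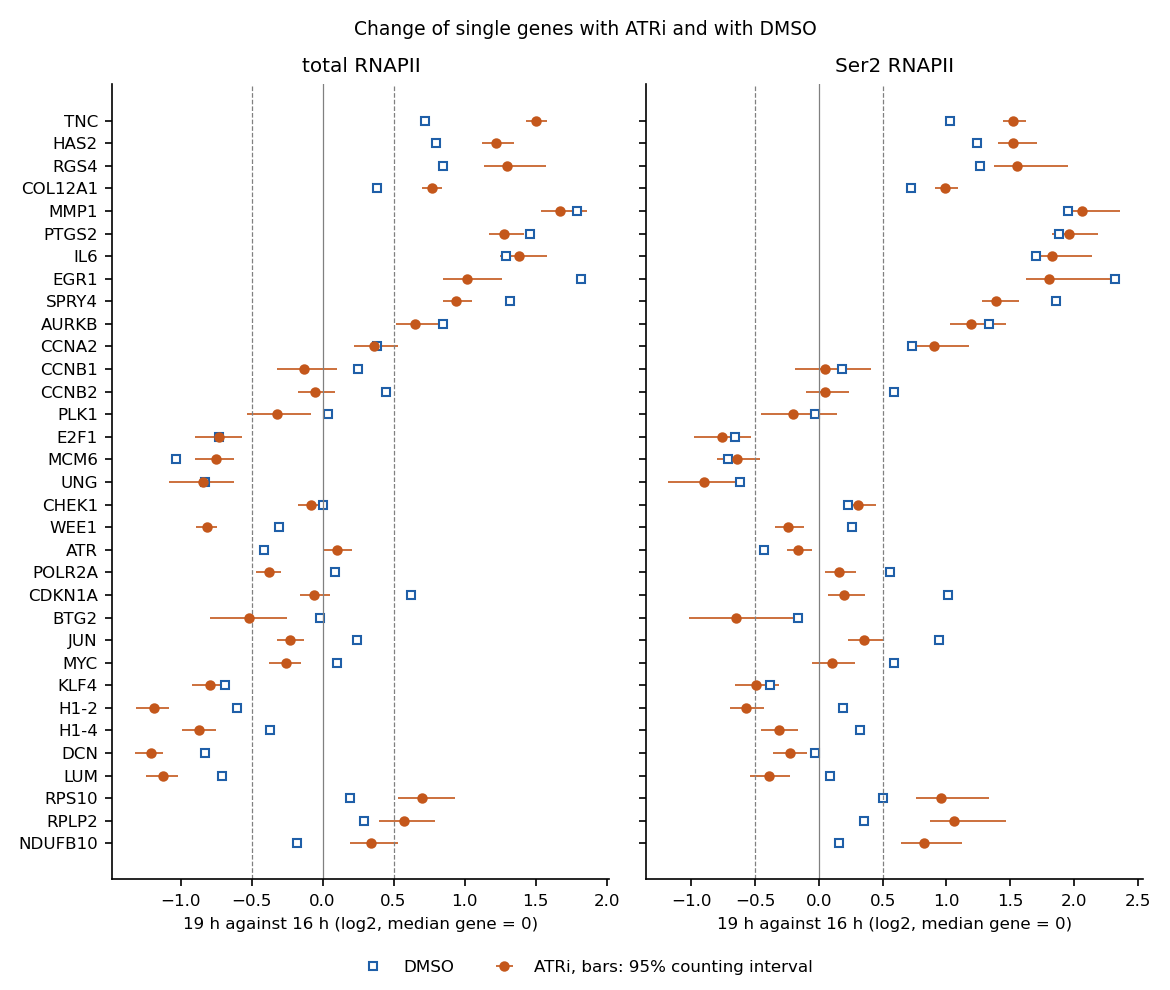
Centred log2 change from 16 h to 19 h (x axis) of 33 genes (y axis) in total RNAPII (left) and Ser2 (right). Filled circles are ATRi with bars for the 95% counting interval of the plain ratio, open squares are DMSO, and dashed lines mark 0.5 in size. TNC and RPS10 lie to the right of their DMSO squares, and CDKN1A, H1-2 and JUN to the left.

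Most genes past 0.5 with ATRi were also past it with DMSO. In total RNAPII 268 genes rose with both, 55.1% of those that rose with ATRi and 40.7% of those that rose with DMSO. The genes that fell with both were 1069, or 78.1% and 64.2%. In Ser2 1201 genes rose with both (73.3% and 64.7%) and 2055 fell with both (86.5% and 83.3%). Across genes the ATRi and DMSO changes had Pearson r = 0.85 in total RNAPII and 0.93 in Ser2, or 0.71 and 0.77 with the density trend removed, as descriptions. Whether the ATRi and DMSO changes differ was not tested, with 1 library in each group.

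The libraries carried the markers of their label. Of 11 fibroblast markers 10 were among the listed genes, at 1.10 to 25.4 RPM per kb in total RNAPII at 16 h and 0.969 to 22.6 at 19 h, and summed to 2260 and 2380 RPM. The keratinocyte marker KRT14, the only one of 7 listed, had 0.145 and 0.0509 RPM per kb. The endothelial markers TEK and VWF, 2 of 5 listed, had 0.195 to 0.218 RPM per kb at 16 h and 0.0982 to 0.129 at 19 h in total RNAPII. That was below the 5th percentile of long genes at both hours. In Ser2 at 16 h they had 0.281 to 0.317, above that percentile (0.277). The melanocyte marker MITF had 0.254 and 0.166 RPM per kb in total RNAPII, the first just above the percentile of 16 h (0.247). Of 7 blood markers 0 were listed.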

How the data were processed

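RNAPII ChIP-seq was measured in 14 libraries of BJ hTERT cells, of which the 4 ATRi libraries of 16 h and 19 h were compared, with the 4 DMSO libraries beside them. The deposited table gives RPM that the authors summed over each gene span, with no division by its length. Bowtie2 2.3.3.1, SAMtools 1.4 and the build hg38 are named, per the submitters' processing notes. The counting tool, annotation, treatment of duplicates, input and spike-in are not given in the sources used here. Within each column 100.0% of the deposited RPM values were whole multiples of 1 read (tolerance 0.01 reads), which gave the library totals and reads per gene. No count model was fitted, since each group has 1 library. Per-gene intervals are exact (Clopper-Pearson, 95%), of the plain ratio without the pseudocount, and cover counting error only.

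Changes are differences of log2(RPM + 0.5) between hours, centred on the median gene passing the filter. The density trend was a lowess curve (span 0.3) of the change against log2 mean density. Background density was the 5th percentile of genes of at least 20 kb in each library. Symbols were assigned by position to 86.4% of genes from RefSeq genes of GRCh38.p14 (overlap of 0.8, or 0.5 with an end within 100 bp), and 8588 of the 11978 genes measured in both antibodies had a RefSeq promoter. Overlapping genes share reads, and 16.2% of genes share over 20% of their span.

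Named genes were the 12 highest and 12 lowest by the smaller of both changes, the 5 each way with the largest difference between antibodies (at least 2 RPM in each antibody and at most 20% of the span shared), up to 4 per list with the largest mean change, and 27 fixed cell cycle, checkpoint and early response genes, of which CCNE1, FOS, MCM5 and RRM2 were not analysed here. The members, lists and rules were chosen with earlier results of these data known. The alternatives were no centring, TMM factors, density trend removed, background subtracted, other pseudocounts, filters and folds, and, chosen after seeing the data, X-linked genes left out. The kappaB motif was also added after seeing the data. The calculation was tested on simulated reads with known changes, with a pass required only for median centring and TMM factors. Those reads held no trend of change with density, so the density and background scalings were not checked against one. Python 3.11.15, pandas 2.3.3, NumPy 2.4.6, SciPy 1.17.1, statsmodels 0.14.6 and matplotlib 3.10.9 were used.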

Additional observations from a re-analysis of the deposited data

Results flagged for a closer look

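The genes and lists below moved to opposite sides of the median gene with ATRi and with DMSO between 16 h and 19 h. Each value rests on 1 library per group, and the difference between treatments was not tested. In Ser2, H1-2 changed by -0.57 with ATRi and 0.19 with DMSO, H1-4 by -0.31 and 0.32, and WEE1 by -0.24 and 0.26, with counting intervals that did not overlap. In total RNAPII, NDUFB10 changed by 0.34 with ATRi and -0.18 with DMSO, ATR by 0.10 and -0.41, POLR2A by -0.38 and 0.09, and JUN by -0.23 and 0.24, again with separate counting intervals. The list medians on opposite sides were those of the histone genes in total RNAPII (-0.35 with ATRi, 0.11 with DMSO), the p53 targets in Ser2 (-0.13 and 0.15), the immediate early genes in total RNAPII (-0.23 and 0.11), and the YAP and TGF-beta targets in Ser2 (-0.17 and 0.17). These sides depend on the scaling. With the density trend removed, H1-2 (-0.77 and -0.42), H1-4 (-0.54 and -0.30) and WEE1 (-0.74 and -0.35) lay below 0 with both treatments in Ser2. In total RNAPII so did POLR2A (-0.56 and -0.15) and the immediate early median (-0.19 and -0.02). NDUFB10, ATR, JUN and the other list medians stayed on opposite sides.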

How the results depend on the processing

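Each group holds 1 library, so no library could be left out. No paired analysis was possible because the groups share no replicate beyond a single library each. Of 84 counts of genes under the alternatives, 56 stayed within 1.5 times the main count. Without centring 5716 genes rose and 338 fell in total RNAPII, 8986 and 337 in Ser2, and 5586 and 240 in both. With the density trend removed 578 fell in total RNAPII, 625 rose and 566 fell in Ser2, and 286 fell in both. With X-linked genes also left out, chosen after seeing the data, 551 fell in total RNAPII, 425 rose and 549 fell in Ser2, and 192 rose and 273 fell in both. With background subtracted 1085 rose in total RNAPII and 642 in both. At a threshold of 0.3, 1811 rose and 2513 fell in total RNAPII, 3104 rose in Ser2, and 1377 and 2083 in both. At a threshold of 1 the counts were 30 and 319, 115 and 838, and 23 and 284.

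Of 552 list medians under the alternatives 50 had the opposite sign to the main value. In 34 of these the main value was at least 0.1 in size, and these are given here. Of 3318 gene values, 22 changed sign from a main value past the threshold. Without centring the medians were 0.13 (histones), 0.25 (immediate early), 0.37 (cholesterol) and 0.30 (YAP and TGF-beta) in total RNAPII, and 0.75 (p53), 0.63 (cholesterol), 0.71 (YAP and TGF-beta) and 0.16 (fragile sites) in Ser2. With the density trend removed, Ser2 medians were -0.16 (immediate early), -0.03 (matrix), -0.12 (ATF4), -0.03 (heat shock), -0.02 (respiratory chain), -0.25 (RNAPII subunits) and 0.01 (fragile sites), and total medians 0.00 (cholesterol) and -0.02 (RNAPII subunits). Without X-linked genes these were alike, with -0.06 for matrix and 0.02 for fragile sites. With background subtracted, Ser2 medians were -0.33 (histones), -0.31 (immediate early), -0.02 (matrix), -0.01 (actin), -0.35 (ATF4) and -0.26 (RNAPII subunits), and total medians 0.05 (cholesterol) and -0.04 (RNAPII subunits). Among genes that share at most 20% of their span the circadian median was -0.02 in total RNAPII.

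Without centring, Ser2 changes were 0.06 for POGLUT2, 0.09 for CNKSR1, 0.12 for E2F1, 0.25 for MCM6, 0.31 for H1-2, 0.24 for TP53INP1, BTG2 and FANCM, 0.35 for FANCC, 0.26 for ALDH1L2, 0.14 for SREBF2, 0.07 for MVK and 0.23 for INSIG1. With the density trend removed they were 0.69 for CNKSR1, 0.09 for FANCM, 0.77 for the X-linked NSDHL and 0.07 for PMEPA1, whose total change was 0.16. Without X-linked genes these became 0.75, 0.10 and, for PMEPA1, 0.15 and 0.23. The cause was not tested.

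In the ATRi libraries 3 reads are 0.154 to 0.156 RPM at 16 h and 0.064 to 0.083 RPM at 19 h. Genes near background are a limit even where they hold far more reads. NPAS3 had 3031 and 1912 reads in total RNAPII, yet lay at or under background density at both hours. Of the 1179 genes that fell in both antibodies, 32.6% lay at or under background density at 19 h in total RNAPII.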
